A study of Mus musculus with 52 samples.

Results

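The inducible heat shock chaperone genes were examined in mouse liver after a single dose of 8 chemicals. The set held 10 genes, fixed by name: Hspa1a, Hspa1b, Hspa8, Hsph1, Hsp90aa1, Dnajb1, Bag3, Hspb1, Hspd1 and Hspe1, of 12393 genes with a probe set of their own. Every probe set whose only annotated symbol was 1 of these genes was taken, which gave 21 probe sets of the 20380 with a single symbol and of 22626 in all. A filter kept the 18349 probe sets that exceeded a floor on low signals in 4 or more arrays, and all 21 passed it, although Hspa1a was at the floor in 38 of 52 arrays.

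The animals were 9-week-old male B6C3F1 mice, a hybrid strain used in carcinogenicity tests, given their chemical or its vehicle once by intraperitoneal injection. The alkylating agents of the genotoxic class were ENU (N-ethyl-N-nitrosourea) at 150 mg/kg, DMN (dimethylnitrosamine) at 5 mg/kg and DPN (dipropylnitrosamine) at 250 mg/kg, each with a control array of its own. Its aromatic mutagens were AAT (o-aminoazotoluene) at 300 mg/kg, DMBA, a dimethylated benzanthracene, at 20 mg/kg and DBP, a dibenzopyrene, at 6 mg/kg, all set against 1 olive oil control. The non-genotoxic class was EtOH (ethanol) at 1000 mg/kg and PB (phenobarbital) at 30 mg/kg, both set against 1 saline control. Livers were taken after 4 h, after 20 h, on day 14 and on day 28, with 1 array for each chemical or control at each time. An array held RNA pooled from 5 mice, so it has no replicate, and chemicals stand in as the replicates of a class. In the fits of chemicals, the p-values therefore rest on differences between chemicals of a class together with those between pools and arrays. In the fit of control arrays alone they rest on differences between control arrays of the same time. The spread between single mice was not measured.

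Chaperones bind unfolded or newly made proteins and help them reach their native shape. When unfolded proteins build up, heat shock factor 1 forms a trimer, binds heat shock elements (alternating GAA and TTC units) and raises the transcription of these genes. The HSP70 proteins Hspa1a and Hspa1b are the strongly inducible forms and Hspa8 is their constitutive relative. Dnajb1 is an HSP40 co-chaperone that delivers clients to HSP70 and stimulates its ATPase, while Hsph1 and Bag3 release its nucleotide. Hsp90aa1 is the inducible cytosolic HSP90, Hspb1 is a small heat shock protein that holds clients without ATP, and Hspd1 with Hspe1 form the chaperonin of the mitochondrial matrix. In liver the set is known to respond to proteotoxic, oxidative and metal stress.

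Promoters of 8 of the 10 genes were matched in the RefSeq table of build GRCm38.p6 (11 start sites), and the 250 bases before each start were searched for paired heat shock units, GAANNTTC or TTCNNGAA. Both motifs read the same on either strand, and matches may overlap. Of the 8 genes, 6 held at least 1 match (Hspa1a, Hspa1b, Hspb1, Hsph1, Hspd1 and Hspe1), while 12.8% of all 32851 promoter windows of the same length did. At least 1 run of 3 alternating units, in either phase, was found in 0.466% of all windows. The shared promoter of Hspd1 and Hspe1 held 2 such runs, which overlap in a longer stretch of alternating units. The windows of Dnajb1 and Bag3 held no match of these letters. Of the sequences below, those of Hspa1b, Hspb1 and Hsph1 are shown for the ratios of these genes with AAT at 20 h, that of Hspa1a as the near-identical neighbour of Hspa1b, and that of Hspe1 for its run of units. They read 5′ to 3′ along the gene and end at the base before the start, with matched units in capitals.
Hspa1b, chr17:34959239-34959488, minus strand: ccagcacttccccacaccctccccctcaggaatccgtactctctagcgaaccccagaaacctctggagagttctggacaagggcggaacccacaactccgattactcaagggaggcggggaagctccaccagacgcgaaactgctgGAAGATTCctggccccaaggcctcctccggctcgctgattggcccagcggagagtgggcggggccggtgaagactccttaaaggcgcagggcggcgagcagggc
Hspa1a, chr17:34972157-34972406, minus strand: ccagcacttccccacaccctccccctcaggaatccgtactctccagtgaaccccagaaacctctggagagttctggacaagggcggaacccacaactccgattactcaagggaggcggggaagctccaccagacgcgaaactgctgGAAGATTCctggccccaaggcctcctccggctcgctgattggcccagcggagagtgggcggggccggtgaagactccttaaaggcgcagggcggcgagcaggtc
Hspb1, chr5:135887669-135887918, plus strand: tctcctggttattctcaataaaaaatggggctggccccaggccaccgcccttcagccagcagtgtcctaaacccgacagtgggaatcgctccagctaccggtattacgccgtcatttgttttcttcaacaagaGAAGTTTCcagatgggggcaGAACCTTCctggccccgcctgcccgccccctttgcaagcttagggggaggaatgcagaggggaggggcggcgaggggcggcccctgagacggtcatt
Hsph1, chr5:149636337-149636586, minus strand: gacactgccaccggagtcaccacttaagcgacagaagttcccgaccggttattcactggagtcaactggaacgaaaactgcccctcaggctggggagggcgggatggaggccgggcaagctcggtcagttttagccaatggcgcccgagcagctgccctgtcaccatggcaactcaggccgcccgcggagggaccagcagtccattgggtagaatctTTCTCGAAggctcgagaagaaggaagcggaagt
Hspe1, chr1:55087898-55088147, plus strand: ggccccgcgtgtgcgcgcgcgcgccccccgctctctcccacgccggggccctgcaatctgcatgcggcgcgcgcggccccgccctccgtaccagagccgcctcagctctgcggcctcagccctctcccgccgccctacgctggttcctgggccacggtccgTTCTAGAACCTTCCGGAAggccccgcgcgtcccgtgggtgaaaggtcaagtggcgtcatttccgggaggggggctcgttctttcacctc
Hspa1a and Hspa1b, neighbouring genes for near-identical proteins, shared 247 of these 250 bases (98.8%). The single match of both began 104 bases before the start. Those of Hspb1 began 117 and 97 bases before it, and that of the Hsph1 window shown began 33 bases before it. Hspe1 and Hspd1 are transcribed away from each other, and 215 bases of the Hspe1 window also belonged to the window of 1 of the 2 Hspd1 starts. A match describes the letters only, and binding was not measured.

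Signals are given after each array was scaled to a common median, and ratios are log2 of the chemical over its own control of the same time. A signal under 32.5 was raised to that floor before the log2. The arrays before scaling had medians between 17.9 and 205. On the EtOH array of 20 h the 3′ to 5′ log2 ratios of the Gapdh and actin control probe sets were 3.13 and 3.79, against -0.51 to 0.34 and 0.15 to 1.28 on the other 51. The labels of the 20 h PB and saline arrays are in doubt: Cyp2b10, which phenobarbital is known to induce, stood at 8.25 (log2 signal) on the PB array and at 11.48 on the array labelled saline, while the ENU, DMN, DPN and olive oil controls lay between 6.19 and 7.26. The highest Cyp2b10 signal of that time, 11.99, was on the AAT array. Because of the 3′ to 5′ ratios and the doubtful labels, the genotoxic fits at 20 h were also run without the EtOH, PB and saline arrays. These fits compare chemicals within their own control set, so those arrays enter only the estimate of the spread. Leaving them out therefore cannot check the genotoxic fold changes. The summed signal of 8 hepatocyte markers was far above the floor in every array group. At 20 h it was 62200 to 87600 in the genotoxic, 80700 to 97600 in the non-genotoxic and 73100 to 103000 in the control arrays. None of the 8 was at the floor in every array, which the filter already ensured. Whether any was at the floor in all arrays of a class was not tested. In a whole-liver pool, fewer cells of a type and less RNA per cell cannot be told apart.

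The members differed widely in signal. Hspd1 had the highest mean signal (3230, mean of 52 arrays), with Hspa8 at 2480, Hspe1 at 2220 and Hsp90aa1 at 1580 by their brightest probe sets. Hspb1 averaged 479, Hspa1b 465, Hsph1 345, Dnajb1 256, Bag3 255 and Hspa1a 25.9, which is under the floor. These are probe-set signals, which depend on the probes, so the order does not rank the transcripts. Where a gene had several probe sets, their ratios over the 32 pairs of chemical and time ran together for Hspb1 (Pearson r = 0.84) and Hspa1b (0.82 and 0.74). They did so less for Dnajb1 (0.35) and for the dimmest probe set of Hspa8, 1431182_at (0.21). Probe sets ending in _x_at hold probes that can match other transcripts, and Hspa1a and Hspa1b are close enough that their signals may be mixed.

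AAT at 20 h had the highest median ratio among the 32 pairs of chemical and time. The median over the 10 genes was 1.15, 9 of 10 genes were above 0, and 15 of 21 probe sets, from 7 genes, were at least 2-fold higher, where 2.1% of all 18349 probe sets were. The median over all probe sets kept was 0 in the same pair. The olive oil control that AAT is set against was the lowest of the 5 controls of that time in 5 of the 10 genes (Hspa8, Hsph1, Hsp90aa1, Hspd1 and Hspe1), and its part in these ratios was not tested. The genes below 2-fold by every probe set were Hspa1a, Hspd1 and Bag3. No array repeats this pair, so no test can be given for it.

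DPN had the next highest median at 20 h. Its median ratio over the 10 genes was 0.53, and 4 probe sets of 3 genes (Hspb1, Hsph1 and Hsp90aa1) were at least 2-fold higher, against 2.35% of all probe sets. For ENU the median was 0.26, and both Hspb1 probe sets were past the limit, against 1.44%. The other medians were 0.13 for DMN, 0.27 for DMBA, 0.14 for DBP, 0.1 for EtOH and 0.01 for PB. Single probe sets passed the limit for DMN (Bag3, background 1.15%) and DBP (Hspa1b, 0.839%), 2 did for EtOH (8.63%) and none did for DMBA (0.85%) or PB (0.992%). Hspa8 1431182_at was at least 2-fold lower for DMBA, DBP and EtOH, where 0.692%, 1.03% and 6.7% of all probe sets were.

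**Figure D1:**
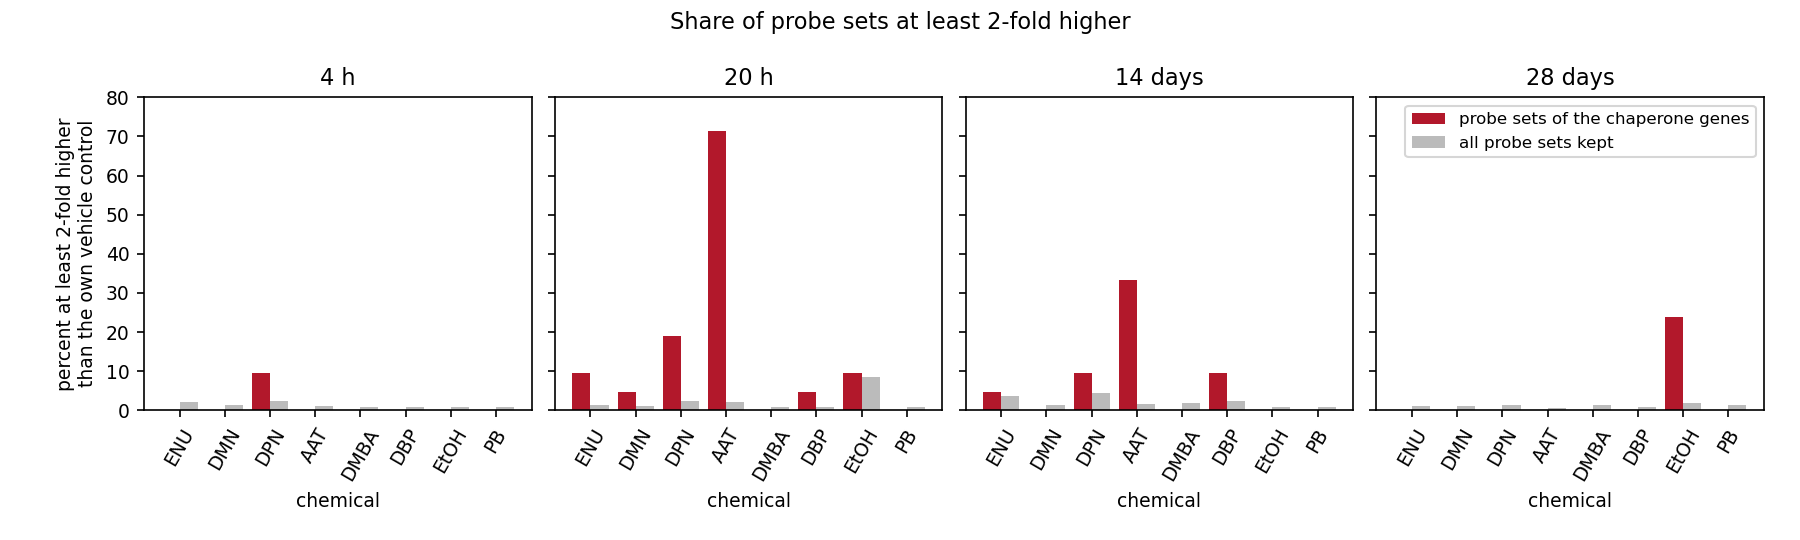
Percent of probe sets at least 2-fold higher than the own vehicle control, for the 21 probe sets of the chaperone genes (red) and all 18349 kept (grey), by chemical in each time panel. The tallest bar is AAT at 20 h, 15 of 21 probe sets against 2.1% of all.

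Of the single genes, Hspb1 had the highest ratios. At 20 h the signal of its brightest probe set, 1422943_a_at, was 1570 with AAT against 348 in the olive oil control, 1150 with DPN against 313 in its control and 700 with ENU against 304 in its control. DMN gave 447 against 377 in its control, while DMBA gave 401 and DBP 380 against the same 348 in olive oil. EtOH gave 443 and PB 411, against 635 on the array labelled saline, which was the highest of the 5 controls. The log2 ratios were thus 2.18 for AAT, 1.88 for DPN, 1.20 for ENU, 0.25 for DMN, 0.20 for DMBA and 0.13 for DBP, against -0.52 for EtOH and -0.63 for PB. All 6 genotoxic ratios lay above both non-genotoxic ones, but the non-genotoxic ratios rest on the array of doubtful label. The dimmer probe set, 1425964_x_at, gave 3.37 for AAT (941 against 90.8 in olive oil), 2.84 for DPN (562 against 78.3) and 1.57 for ENU (190 against 63.9), and 0.32 to 0.44 for the other genotoxic chemicals. Here EtOH, at 0.26, lay close to them and PB was at -0.97. The ENU, DMN, DPN and saline controls differed at 20 h by up to 1.06 in the brightest and 1.72 in the dimmer probe set. This spread includes the array of doubtful label. The AAT and DPN ratios lay outside it by both probe sets, and that of ENU by the brightest only.

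Over the genotoxic class at 20 h the fitted log2 fold change of Hspb1 was 1.02 (SE 0.45) by its brightest and 1.52 (SE 0.70) by its dimmer probe set, higher in 6 of 6 chemicals, with a limma adjusted p of 0.965 for both. Without the EtOH, PB and saline arrays of that time, which do not enter these fold changes, the counts of members called did not change from 0. At 4 h Hspb1 was 1.12 higher with DPN (674 against 311 in its control) and 0.76 higher with ENU (476 against 281), while AAT was at -0.45 (287 against 392 in olive oil). The ENU, DMN, DPN and saline controls differed by up to 1.13 in this probe set at 4 h. The fitted change of the class at 4 h was 0.41 (SE 0.25, limma adjusted p = 0.626). The class estimate of 20 h minus that of 4 h was 0.61 (SE 0.43) by the brightest and 1.22 (SE 0.61) by the dimmer probe set, with a limma adjusted p of 1 for both. On day 28 Hspb1 was below its control in 5 of 6 genotoxic chemicals, with log2 ratios between -0.63 and -0.07.

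**Figure D2:**
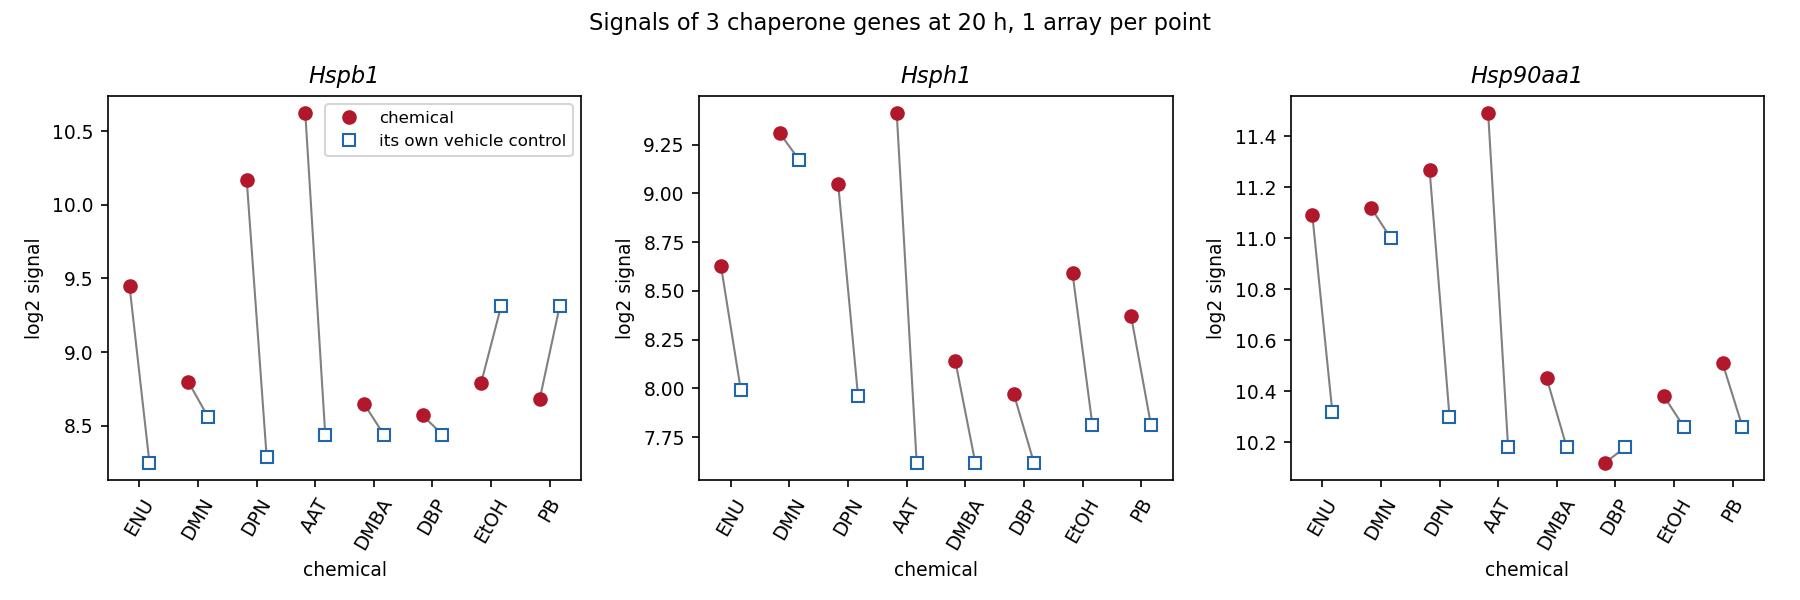
Log2 signal at 20 h of Hspb1, Hsph1 and Hsp90aa1 (panels, brightest probe sets) for each chemical (filled circles) and its own vehicle control (open squares), 1 array per point, with a line joining each pair; the olive oil control repeats for AAT, DMBA and DBP and the saline control for EtOH and PB. AAT, DPN and ENU lie above their controls in all 3 panels. For Hsph1 the DPN and ENU ratios (1.09 and 0.63) are within the largest difference among the ENU, DMN, DPN and saline controls (1.36). The DMN control is the highest control in the Hsph1 and Hsp90aa1 panels.

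Among the HSP70 genes, Hspa1b was higher with AAT and below its controls with DPN and DMN at 20 h. Its 3 probe sets had ratios of 1.21, 1.32 and 2.20 for AAT, with signals of 916, 543 and 1140 against 395, 217 and 247 in olive oil. DMBA and DBP, set against the same control, gave 0.64 to 0.88 and 0.63 to 1.11. DPN was below its control by all 3 probe sets (-0.65, -0.38 and -0.67), and DMN was too (-0.66, -0.68 and -0.16). The ENU, DMN, DPN and saline controls differed from each other at 20 h by up to 1.46, 1.66 and 1.55. These values are for 1452318_a_at, 1427126_at and 1427127_x_at. Of the ratios given here for 20 h, only 2.20 for AAT by 1427127_x_at lay outside that spread. The class estimate was 0.16 (SE 0.30, limma adjusted p = 1) by the brightest probe set. At 4 h DPN was 1.94 higher by 1427126_at (238 against 62.3 in its control) and 0.73 higher by the brightest probe set (442 against 266). The ENU, DMN, DPN and saline controls alone differed by up to 2.29 and 1.57 in these probe sets at that time.

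Hspa1a was measured above the floor in few arrays. It was at the floor in all 5 controls at 4 h and at 20 h. At 4 h its signal was 63.2 with DPN and 58.0 with AAT, against 21.0 and 15.4 in their controls, 38.4 with EtOH and 39.9 with PB against 27.2 in saline, and under the floor with the other 4 chemicals. At 20 h it was 39.2 with AAT and 41.5 with DBP, against 20.9 in olive oil. On day 14 it reached 69.8 with AAT against 27.3 in olive oil, and 68.5 in the DMN control, where DMN itself gave 22.2. Ratios against a floored control, such as 0.96 for DPN at 4 h, are lower bounds.

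Hspa8, the constitutive HSP70, had smaller ratios, and its 4 probe sets did not all run together. At 20 h the brightest, 1420623_x_at, had a signal of 3210 with AAT against 1550 in olive oil, a ratio of 1.05, and the other 5 genotoxic ratios lay between 0.29 and 0.36. The second brightest, 1455789_x_at, gave 1.58 for AAT and 0.28 to 0.58 for the others. For EtOH at 20 h the 4 probe sets disagreed, at -0.62, 1.65, -0.72 and -1.20, on the array with the high 3′ to 5′ ratios. The class estimates at 20 h were 0.41 (SE 0.19), 0.58 (SE 0.32) and 0.58 (SE 0.20) for the 3 brighter probe sets, higher in 6 of 6 chemicals in each, and 1431182_at was higher in 1 of 6. At 4 h the brightest was 0.47 higher in the class (SE 0.15, limma adjusted p = 0.455, higher in 5 of 6). On day 14 1420622_a_at was 0.96 higher (SE 0.32, limma adjusted p = 0.387, higher in 5 of 6), with 1.72 for DBP, 1.69 for AAT, 1.34 for DPN and 1.01 for ENU. The brightest probe set gave 0.91 for DBP, 0.84 for AAT, 0.62 for DPN and 0.47 for ENU. In these 2 probe sets the ENU, DMN, DPN and saline controls of that day differed by up to 0.99 and 0.76. The olive oil control, which AAT, DMBA and DBP share, was the lowest of the 5 in both, and its part in these ratios was not tested.

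Hsph1, the nucleotide exchange factor of the HSP110 family, passed the threshold in no fit. At 20 h its brightest probe set read 678 with AAT against 196 in olive oil (ratio 1.79), 529 with DPN against 248 (1.09) and 395 with ENU against 255 (0.63). DMN read 636 against 576 in its control (0.14), the highest of the 5 controls. The ENU, DMN, DPN and saline controls differed by up to 1.36 in this probe set, and only the AAT ratio lay outside that spread. EtOH gave 0.78 and PB 0.56. By the other probe set EtOH, on the array with the high 3′ to 5′ ratios, was instead at -0.87 (81.1 against 149 in saline) and PB was at 0.29. The class estimate was 0.71 (SE 0.30, limma adjusted p = 0.965), higher in 6 of 6. On day 28 the highest ratio belonged to EtOH, at 606 against 249 in saline (1.28), and its other probe set gave 1.12.

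Hsp90aa1 was also highest with AAT at 20 h. Its brightest probe set read 2870 with AAT against 1160 in olive oil (1.31), 2460 with DPN against 1260 (0.96) and 2180 with ENU against 1270 (0.78). The ratios were 0.13 for DMN, 0.27 for DMBA, -0.06 for DBP, 0.12 for EtOH and 0.25 for PB. The other probe sets gave 1.85 and 1.68 for AAT. Across the class the estimate was 0.58 (SE 0.27, limma adjusted p = 0.965, higher in 5 of 6). At 4 h AAT was instead below its control by this probe set, at 1060 against 1580 in olive oil (-0.57). The other probe sets gave -0.53 and 0. In the brightest, the ENU, DMN, DPN and saline controls differed by up to 0.71 at 4 h and 0.73 at 20 h. The AAT ratio of 4 h lay within that spread, and those of AAT, DPN and ENU at 20 h lay outside it.

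The co-chaperones Dnajb1 and Bag3 differed from each other. Dnajb1 at 20 h read 531 with AAT against 227 in olive oil (1.23) and 332 with DPN against 200 (0.73), and its ratios for the other 6 chemicals lay between -0.50 and 0.28. The second probe set, 1416755_at, gave 0.77 for AAT (335 against 197) but -0.33 for DPN (190 against 239). At 4 h the brightest was higher in 6 of 6 genotoxic chemicals, by 0.01 to 0.46, with a class estimate of 0.30 (SE 0.12, limma adjusted p = 0.492). The second probe set was higher in 3 of 6. Bag3 at 20 h read 239 with AAT against 322 in olive oil (-0.43), and its highest ratio was 1.04 for DMN, at 318 against 154 in a control that was the lowest of the 5. At 4 h the Bag3 ratios were -0.41 for ENU, -0.08 for DMN and -0.32 for DPN, against 0.66 for AAT, 0.33 for DMBA and 0.57 for DBP. The ratios of AAT, DMBA and DBP share 1 olive oil control. The fitted difference of alkylating minus aromatic chemicals was -0.79 (SE 0.22, limma adjusted p = 0.454).

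The mitochondrial pair differed in the size of its ratios. Hspe1 at 20 h was higher in 6 of 6 genotoxic chemicals by both probe sets. By the brightest, it read 2770 with AAT against 1300 in olive oil (1.10), 3330 with DPN against 2040 (0.71), 3220 with ENU against 1980 (0.70) and 3000 with DMN against 2060 (0.54). DMBA and DBP gave 0.26 and 0.14, EtOH gave 0.73 and PB 0.12, where the second probe set gave -0.01 and -0.12, and the EtOH array is the one with the high 3′ to 5′ ratios. The ENU, DMN, DPN and saline controls differed by at most 0.07 in the brightest probe set at that time. That spread leaves out the olive oil control, which AAT, DMBA and DBP share. It was the lowest of the 5, with a log2 signal of 10.34 against 10.95 in the next. DMBA and DBP, at 10.60 and 10.48, were below the other 4 controls as well. The class estimate was 0.60 (SE 0.22, limma adjusted p = 0.965), and the 20 h estimate exceeded that of 4 h by 0.56 (SE 0.20, limma adjusted p = 0.889). On day 28 the estimate was 0.13 (SE 0.04, limma adjusted p = 0.764). Hspd1, its partner from the same promoter region, was 0.45 higher with AAT at 20 h (3740 against 2740 in olive oil), 0.19 with DPN and 0.11 with ENU, with a class estimate of 0.14 (SE 0.10).

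No probe set of the 10 genes was called in any of the 8 comparisons fitted with limma (Benjamini-Hochberg adjusted p under 0.05 over 18349 probe sets). For the genotoxic class against its controls, 0% of all probe sets were called at any of the 4 times, so the count of 0 members equals the background. At an unadjusted p under 0.05, 3 of the 21 passed at 4 h, all higher, where 9.73% of all probe sets did. At 20 h 3 passed (4.62% of all), at 14 days 2 passed (11.8%), again all higher, and at 28 days 2 passed (6.08%), with 1 higher and 1 lower. The median fitted fold change of the 10 genes was 0.12 at 4 h, 0.34 at 20 h, 0.15 at 14 days and -0.04 at 28 days, where the median over all probe sets tested was 0.01, 0.01, 0.05 and 0. At 20 h the estimate was above 0 for 10 of 10 genes. The mean over the 6 chemicals of each one's median ratio was 0.13 ± 0.16 at 4 h, 0.42 ± 0.39 at 20 h, 0.17 ± 0.36 at 14 days and -0.01 ± 0.08 at 28 days (SD, n = 6). With 1 chemical left out, the mean at 20 h was 0.27 without AAT, that at 4 h was 0.07 without DPN, and that at 14 days was 0.30 without DMN and 0.11 without ENU (n = 5 each).

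The study set genotoxic against non-genotoxic chemicals. At 4 h genotoxic minus non-genotoxic chemicals called 0 of 21 member probe sets, with 0 also at an unadjusted p under 0.05, where 0.104% and 3.89% of all probe sets passed. Alkylating minus aromatic chemicals called 0 members, with 2 at an unadjusted p under 0.05 (Bag3 lower and Hspa8 1420622_a_at higher, 0.79 with SE 0.28), where 0.125% and 8.07% of all passed. The difference of 20 h minus 4 h in the genotoxic class called 0 members, with 1 at an unadjusted p under 0.05 (Hspe1), against 0% and 4.89% of all. Median fold changes of the 10 genes in these 3 comparisons were -0.05, 0.14 and 0.11.

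Outside 20 h, fewer ratios passed 2-fold. At 4 h only DPN had any, in 2 probe sets (Hspb1 and Hspa1b) against 2.47% of all, and the backgrounds of the chemicals with none were 2.2% for ENU, 1.34% for DMN, 1.24% for AAT, 0.785% for DMBA, 0.888% for DBP, 0.883% for EtOH and 0.817% for PB. On day 14 AAT had 7 probe sets of 4 genes (Hspa1a, Hspa1b, Hspa8 and Hsp90aa1) against 1.7% of all, with the 3 Hspa1b probe sets at 1.29, 1.45 and 1.67. The ENU, DMN, DPN and saline controls of that day differed by up to 2.26, 2.63 and 3.08 in these 3 probe sets. DPN had 2 (4.37%), DBP 2, both of Hspa8 (2.43%), ENU 1 (3.77%), and DMN (1.32%), DMBA (1.86%), EtOH (0.921%) and PB (0.801%) had none. The ENU and DPN controls of day 14 were dim arrays, with deposited medians of 40.5 and 49.9, and their part in these ratios was not tested. The olive oil control of that day was the lowest of the 5 for both Hspa8 probe sets past the limit with AAT and DBP, and its part was not tested either. DMN on day 14 was the opposite, with a median ratio of -0.51, 1 of 10 genes above 0 and 3 probe sets at least 2-fold lower, against 1.45% of all. Its control had the highest deposited median of all 52 arrays (205), and the median ratio ran from -2.12 with values as deposited to -0.37 over the 8 alternatives.

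On day 28 only EtOH had probe sets at least 2-fold higher, 5 of 3 genes (Hspa1b, Hsph1 and Hspa8) against 1.79% of all. Hspa1b read 523 and 812 with EtOH against 203 and 296 in saline by 1427126_at and 1427127_x_at, ratios of 1.37 and 1.46. The ENU, DMN, DPN and saline controls of that day differed by up to 2.36 and 2.13 in these probe sets. PB, set against the same saline array, gave 0.63 and 0.81 in these and 0.70 for Hsph1, with no probe set past the limit (1.32%). The 28-day PB array had the lowest deposited median of all 52 (17.9). Its median ratio ran from -1.62 to 0.47 over the 8 alternatives. The 28-day saline array, which the EtOH and PB ratios share, was the lowest control for Hspa8, Hspd1 and Dnajb1. Backgrounds of the others were 1.04% for ENU, 1.08% for DMN, 1.38% for DPN, 0.708% for AAT, 1.35% for DMBA and 0.97% for DBP. DMBA had 2 probe sets at least 2-fold lower, Bag3 (-1.27, 169 against 407 in olive oil) and Hspa8 1431182_at, where 0.616% of all were.

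The vehicle controls themselves varied in these genes. The DMN control was the highest of the 5 controls in 4 of the 10 genes at 4 h, in 6 at 20 h and in 8 on both later days. For Hsp90aa1 it read 2270 at 4 h, 2040 at 20 h, 2250 on day 14 and 2320 on day 28. The other 4 controls lay between 1390 and 1580 at 4 h, 1160 and 1270 at 20 h, 1030 and 1310 on day 14, and 1250 and 1700 on day 28, so the DMN control did not overlap them at any time. For Hspa1b it was the lowest control at 4 h (169 by the brightest probe set, against 260 to 556 in the others) and the highest later, with 551, 825 and 937. All ratios of DMN are taken against these arrays: the DMN arrays themselves read 2260, 2230, 1850 and 2110 for Hsp90aa1. Pairs among the ENU, DMN, DPN and saline controls had median differences of the 10 genes within 0.18 at 4 h and 0.28 at 20 h. The differences reached 0.88 at 14 days and 0.62 at 28 days. The pairs of 20 h include the array labelled saline, whose label is in doubt. At least 2-fold differences were found in up to 3 of the 21 probe sets at 4 h, where 3.52% and 3.64% of all probe sets differed so in the pairs concerned. They were found in up to 6 at 20 h (2.49% of all), 8 at 14 days (4.16% and 4.95%) and 8 at 28 days (2.53% and 2.85%), each time in pairs that held the DMN control. Over all 5 control sets, 20 h minus 4 h called 0 members and 0 at an unadjusted p under 0.05, where 0.0218% and 6.15% of all probe sets passed. The fitted difference for Hspe1 was -0.27 (SE 0.13, limma adjusted p = 0.824), with a mean log2 signal of 10.86 at 20 h and 11.13 at 4 h.

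**Figure D3:**
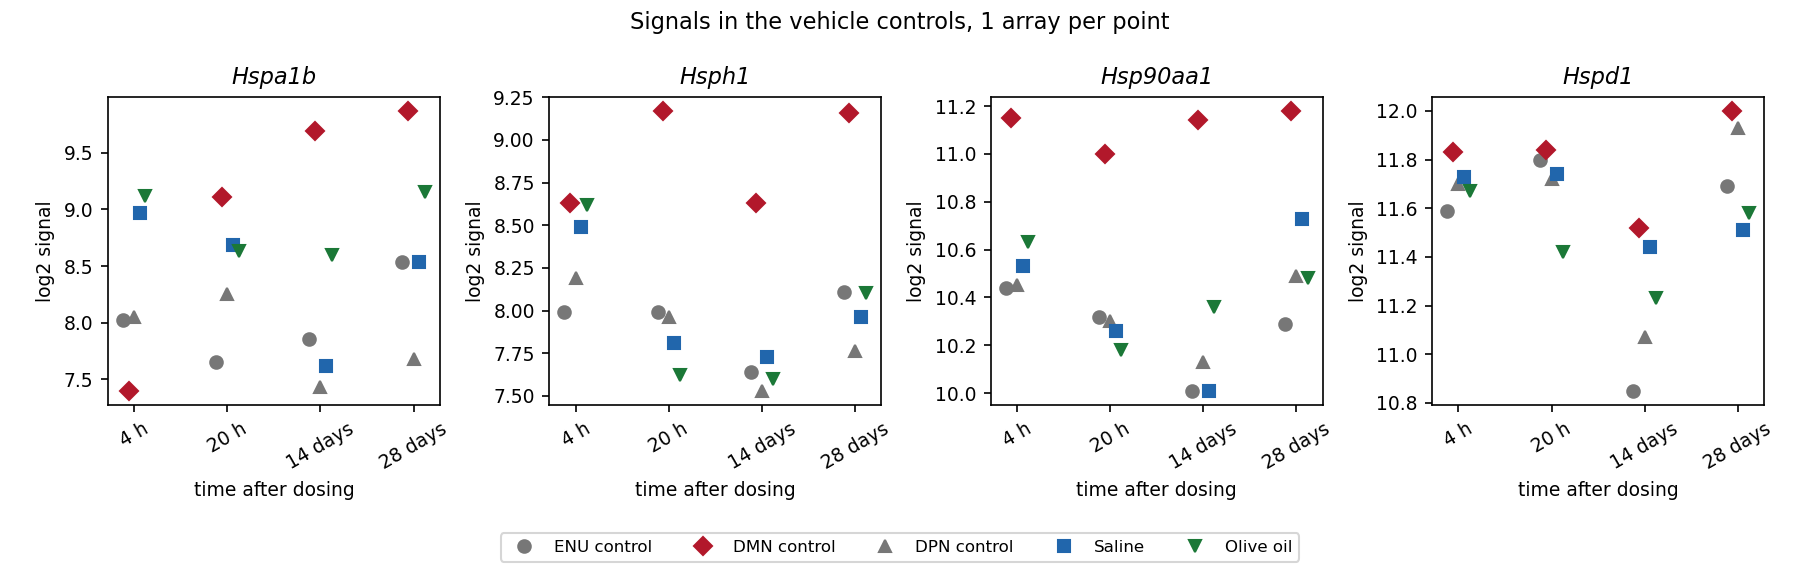
Log2 signal of Hspa1b, Hsph1, Hsp90aa1 and Hspd1 (panels, brightest probe sets) in the 5 vehicle control arrays at each time after dosing, 1 array per point. The DMN control (red diamonds) lies above the other 4 at every time for Hsp90aa1, and is the lowest at 4 h and the highest at the later times for Hspa1b.

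Other chaperones moved alongside at 20 h only in part. Of 36 further cytosolic chaperones and co-chaperones with a kept probe set, 30 had a fitted genotoxic fold change above 0 at 4 h and 31 at 20 h, with medians of 0.09 and 0.19, and none was called. With AAT at 20 h their median ratio was 0.59 and 4 were at least 2-fold higher: Hspa4l, an HSP110 relative, St13 and Ahsa1, co-chaperones of HSP70 and HSP90, and Chordc1, an HSP90 partner, where 2.1% of all probe sets were. With DPN the median was 0.36 with 1 past the limit (Cct2, a chaperonin subunit), against 2.35% of all, and with ENU it was 0.19 with none, against 1.44%. These 5 were named after their values were seen. The largest mean genotoxic ratios at 4 h were 0.72 ± 0.66 for Hspa2, 0.37 ± 0.24 for Dnaja2, 0.35 ± 0.62 for Fkbp5, which glucocorticoids are known to induce, and 0.33 ± 0.38 for Hspb8 (SD, n = 6). With AAT at 20 h these genes gave -0.18, 0.58, 0.80 and 0.54.

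The 5 heat shock factors and regulators kept had an AAT median of 0.39 at 20 h, and none passed 2-fold. The 4 h means were 0.22 ± 0.33 for the autophagy receptor Sqstm1, -0.21 ± 0.10 for the deacetylase Hdac6, -0.20 ± 0.39 for Hsf4 and 0.07 ± 0.17 for Hsbp1 (SD, n = 6). Hdac6 was lower in 6 of 6 chemicals, with a limma adjusted p of 0.508. The 11 other mitochondrial chaperones and proteases had an AAT median of 0.11, while Hspe1 was at 1.10. For the protease subunit Clpx the 4 h mean was 0.26 ± 0.33 and the AAT ratio at 20 h was -0.55. The 13 endoplasmic reticulum chaperones had an AAT median of -0.13 and none past 2-fold. Hspa5, the HSP70 of that compartment, was 0.21 ± 0.19 higher at 4 h (SD, n = 6, higher in 6 of 6, limma adjusted p = 0.666), and was at -0.62 with AAT at 20 h. No gene of these 4 lists was called in the genotoxic class at any time.

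Markers of other liver cells were set beside the 20 h ratios. The summed signal of 6 neutrophil markers was 616 with AAT against 486 in olive oil, a log2 ratio of 0.34. Their median ratio was -0.05, and 1 of the 6 was at least 2-fold higher (Csf3r, a granulocyte receptor), where 2.1% of all probe sets were. With DPN the sum was 401 against 439 in its control (median ratio 0). With ENU it was 462 against 500 (median ratio -0.04), with Csf3r again past 2-fold, against 1.44% of all. This sum ran from 401 to 769 over the genotoxic, 490 to 529 over the non-genotoxic and 439 to 573 over the control arrays of 20 h. The sum of 11 Kupffer cell and macrophage markers was 3220 with AAT against 3700 in olive oil and 3000 with DPN against 4090 in its control. Their median ratios were -0.13 with AAT and -0.45 with DPN. With DPN 1 of the 11, the lysosomal Cd68, was at least 2-fold higher, against 2.35% of all. Their sum ran from 3000 to 4040 over the genotoxic, 3470 to 4100 over the non-genotoxic and 3170 to 4110 over the control arrays. The hepatocyte sum had log2 ratios of -0.25 to -0.24 with AAT, DPN and ENU, and the sum of 4 pancreatic acinar markers had -0.87 to -0.51. Their part in the chaperone ratios was not tested.

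Across the 32 pairs of chemical and time, the ratio of each gene was set beside the mean of the other 9 as a description, since pairs share control arrays. Pearson r was highest for Hsp90aa1 (0.71), Hspd1 (0.68), Dnajb1 (0.65) and Hspe1 (0.63). It was 0.60 for Hspa8, 0.54 for Hspb1, 0.47 for Hsph1, 0.41 for Hspa1b and 0.32 for Hspa1a, and Bag3 stood apart at -0.13. Among 16685 other probe sets with a single symbol, those most like the mean of the members were Pop5, a ribonuclease P subunit (r = 0.83), Psmd6 (0.77), Psmc6 (0.73) and Psmb5 (0.73), subunits of the proteasome, and Pfn2, an actin-binding profilin (0.73). Their ratios with AAT at 20 h were 0.51 for Pop5, 0.82 for Psmd6, 0.85 for Psmc6, 0.92 for Psmb5 and 1.54 for Pfn2.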

How the data were processed

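The authors hybridised mouse liver RNA to 52 Affymetrix arrays and deposited linear probe-set intensity for 22690 probe sets. The sources used here do not give its software or scaling, and the probe-set names do not match the array that the paper names. No per-sample column was left unused (0), while 64 Affymetrix controls were.

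Arrays were brought to a common median by a factor per array. Values under the 30th percentile (32.5) were raised to that floor, and log2 was taken. The number of arrays limits the precision. Classes were fitted in limma 3.58.1 (R 4.3.3), with moderated variances that followed a trend on mean signal and the control set as a block, and the fit was tested on simulated data. Single chemicals were compared with their own control without a test. A gene was represented by its brightest probe set. Beyond the members, a rule named the 4 genes of each chaperone list with the largest mean genotoxic ratio, up or down, at 4 h (2 of the lists are given in part) and the 5 probe sets most like the members. The members and lists were chosen with earlier results of these data known. Alternatives covered scaling, floor, filter, block, variance trend, shared spread and leaving out chemicals.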

Additional observations from a re-analysis of the deposited data

Results flagged for a closer look

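In 80 groups of 5 or 6 arrays, 12 held a highest or lowest value far from the rest. Chance alone gives this in about 1 group in 20 where groups are independent. These groups share arrays, so 12 of 80 cannot be set against that share. Values are log2 signals or log2 ratios of the brightest probe set.

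The DMN control gave 6 of the 12. It was the highest control for Hsph1 at 20 h (9.17, next 7.99), on day 14 (8.63, next 7.73) and on day 28 (9.16, next 8.11), and for Hsp90aa1 at 4 h (11.15, next 10.63) and at 20 h (11, next 10.32). For Hspa8 it was the lowest control at 4 h (10.62, next 11.24). On day 14 the DMN ratio of Hspa8 was the lowest of the 6 genotoxic ones (-0.7, next 0.47).

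At 20 h the array labelled saline was the highest control for Hspb1 (9.31, next 8.56). Olive oil, against which AAT is set, was the lowest control for Hspd1 (11.42, next 11.72) and for Hspe1 (10.34, next 10.95), and it was also the lowest for Hspa8, Hsph1 and Hsp90aa1. The AAT ratio of Hspa8 was the highest at that time (1.05, next 0.36). On day 28 the DBP ratio of Hspb1 was the lowest (-0.63, next -0.19).

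In 3 cases all chemicals of one kind moved opposite to all of another, and the difference is a mean of ratios. How many such cases would arise without any effect was not computed, and the aromatic chemicals share 1 olive oil control. Hspb1 at 20 h was 1.54 higher in genotoxic than in non-genotoxic chemicals, a difference that was not tested and that rests on the array labelled saline. Bag3 at 4 h differed by -0.79 for alkylating minus aromatic chemicals, which did not pass the test given above. Hspd1 on day 28 differed by -0.13 for alkylating minus aromatic chemicals, and this was not tested.

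The 20 h EtOH array had 3′ to 5′ log2 ratios of 3.13 for the Gapdh and 3.79 for the actin control probe sets, outside the range of the other 51 arrays.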

How the results depend on the processing

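The count of members called stayed at 0 in 140 of 141 alternatives. The exception was the genotoxic class on day 14, where 1 fit of all arrays called 1 probe set, Hspa8 1420622_a_at (limma adjusted p = 0.0399 there, 0.387 as reported). With chemicals or control sets left out in turn, all counts ranged from 0 to 0. Without the 20 h EtOH, PB and saline arrays, an alternative chosen after seeing the data, they were 0 as well. Those arrays enter only the estimate of the spread in the genotoxic fits, so this alternative cannot alter the fold changes. With the values as deposited and no scaling, the mean of the 6 genotoxic medians on day 28 was -0.17, and the Hspe1 fold change of that day was -0.01 in place of 0.13; deposited medians differ between arrays, and other causes were not tested. Of 687 recomputed fold changes, 685 kept direction and side of the threshold, and 55 of 56 class means moved by less than the spread between chemicals. Leaving out each genotoxic chemical in turn, also chosen after seeing the data, gave class means of 0.07 to 0.17 at 4 h, 0.27 to 0.47 at 20 h, 0.11 to 0.30 at 14 days and -0.03 to 0.01 at 28 days. Of 256 recomputed medians of single chemicals, 21 moved by more than the spread, all but 2 of these with unscaled values. Hspb1 at 20 h ranged from 0.77 to 1.25. Each chemical was paired with its own control through the control set as a block, and without that block the counts stayed at 0. With replicate numbers in place of control sets, no paired analysis was possible because the labels carry no such numbers. The single pool per chemical limits every ratio, and low signals limit Hspa1a.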
